A study of Mus musculus with 4 samples.

Results

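FAIRE-seq had been used to map accessible chromatin in EpRas cells, and 4545 distal autosomal regions of these cells were called only in the library that had received TGF-β together with control siRNA. A region was taken if its middle lay more than 2 kb from every annotated transcription start site (TSS) and if it shared no base with a region of the other libraries. These libraries were siControl without TGF-β, siEtv4/5 set 1 with TGF-β and siEtv4/5 set 2 with TGF-β. The siControl TGF-β library held 28754 FAIRE-positive regions, of which 18733 were distal and autosomal, so that the regions described here made up 24.3% of them (95% Wilson interval 23.7 to 24.9). Of the 8379 distal regions that were gained with TGF-β, meaning not called in the untreated library, they made up 54.2%. Judged by a single set, 4947 of the gained regions were absent with set 1 (59.0%) and 6893 with set 2 (82.3%), and with the 14925 most significant regions of each list the members numbered 1498. A further 2750 gained regions were called with one of the siRNA sets and 1084 with both sets. The same calls decided which regions were taken, so these counts describe the lists and test nothing.

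EpRas is a line of mouse mammary gland epithelial cells (EpH4) transformed with H-Ras, and every library carried this active Ras. The cells were kept for 4 days with TGF-β3 at 1 ng/ml or without it, after transfection of a control siRNA or of siRNAs against Etv4 and Etv5, with a different pair of siRNAs in each set. Each group had 1 list of regions and no replicate list, so there is no test of a condition, and each interval covers counting error only. The siRNAs act on transcripts and no RNA was measured here, so the knockdown itself could not be checked from these lists. The study reported knockdown of Etv4 by siRNAs in EpRas cells, with Etv4 protein examined by immunoblot. Among marker promoters, 8 of 12 epithelial, 2 of 9 mesenchymal, 0 of 4 blood and 1 of 3 endothelial genes had a region in the siControl TGF-β library. The epithelial markers Cdh1 and Epcam were among those without one there, and the endothelial one was Pecam1.

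FAIRE recovers the DNA that is left free of crosslinked nucleosomes, and most regions found far from promoters in such maps are candidate enhancers. TGF-β signals through receptor kinases and Smad proteins, and in epithelial cells it can drive epithelial-mesenchymal transition (EMT), the switch to a migratory, matrix-producing state. AP1, made of Fos and Jun proteins, and the ETS factors bind short DNA motifs in many enhancers and act downstream of Ras. Etv4 and Etv5 belong to the PEA3 subfamily of ETS factors, which is known for roles in branching and invasion of mammary epithelium.

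Printed first are the 200 bp around the summit of 6 members with at least 30 summit fragments. These 6 had the highest fold enrichment among such members. That ranking used the siControl TGF-β library alone and does not measure how clearly the other lists lacked a region. The 6 are followed by the highest members near genes of the TGF-β family. Fold enrichment is the authors' ratio of signal at the summit to that of the surroundings. No sequence was printed where an annotated exon lay in the window. All are read from the plus strand of GRCm38, and capitals mark AP1 (TGACTCA), CRE (TGACGTCA), ETS (CAGGAAG or CCGGAAG), RUNX (TGTGGTT) and TEAD (GGAATG) motifs on either strand.
Orc5, chr5:22597122-22597321: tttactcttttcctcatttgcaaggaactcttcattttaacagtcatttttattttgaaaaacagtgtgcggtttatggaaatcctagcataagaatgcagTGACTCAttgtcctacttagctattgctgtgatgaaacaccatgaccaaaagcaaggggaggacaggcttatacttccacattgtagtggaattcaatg
Foxo1, chr3:52242569-52242768: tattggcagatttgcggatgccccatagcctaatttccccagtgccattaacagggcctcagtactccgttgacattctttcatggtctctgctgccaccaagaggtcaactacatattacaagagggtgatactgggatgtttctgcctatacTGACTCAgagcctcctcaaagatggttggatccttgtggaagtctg
Usp31, chr7:121660805-121661004: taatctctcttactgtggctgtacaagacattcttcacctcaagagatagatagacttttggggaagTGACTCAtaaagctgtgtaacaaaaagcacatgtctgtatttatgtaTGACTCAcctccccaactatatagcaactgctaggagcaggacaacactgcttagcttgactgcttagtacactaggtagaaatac
Ggta1, chr2:35478550-35478749: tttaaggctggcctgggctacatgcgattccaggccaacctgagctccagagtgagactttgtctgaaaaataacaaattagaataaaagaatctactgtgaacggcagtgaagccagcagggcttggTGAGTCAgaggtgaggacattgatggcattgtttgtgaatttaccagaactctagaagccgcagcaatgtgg
Myc, chr15:62222818-62223017: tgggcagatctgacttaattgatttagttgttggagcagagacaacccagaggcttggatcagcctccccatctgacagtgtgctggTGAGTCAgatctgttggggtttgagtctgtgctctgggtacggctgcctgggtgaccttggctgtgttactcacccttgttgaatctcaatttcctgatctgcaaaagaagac
Ppargc1a, chr5:51710801-51711000: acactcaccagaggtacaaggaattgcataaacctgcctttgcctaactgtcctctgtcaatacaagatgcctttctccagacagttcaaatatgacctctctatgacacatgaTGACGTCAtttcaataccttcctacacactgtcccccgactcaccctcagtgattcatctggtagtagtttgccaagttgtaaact
Inhba, chr13:15845932-15846131: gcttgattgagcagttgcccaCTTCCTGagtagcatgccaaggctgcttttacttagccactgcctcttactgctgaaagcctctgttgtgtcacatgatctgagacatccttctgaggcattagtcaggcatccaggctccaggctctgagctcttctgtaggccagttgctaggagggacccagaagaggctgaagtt
Inhbb, chr1:119458348-119458547: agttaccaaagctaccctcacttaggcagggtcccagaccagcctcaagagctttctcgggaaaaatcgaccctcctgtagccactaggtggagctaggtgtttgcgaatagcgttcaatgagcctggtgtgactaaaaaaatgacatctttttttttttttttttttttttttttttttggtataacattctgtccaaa
Inhba, chr13:16453330-16453529: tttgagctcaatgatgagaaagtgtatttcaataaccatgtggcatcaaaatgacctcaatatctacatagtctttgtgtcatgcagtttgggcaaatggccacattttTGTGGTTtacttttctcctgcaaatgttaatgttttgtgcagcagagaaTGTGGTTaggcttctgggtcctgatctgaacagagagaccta
Each was named by the nearest TSS of a protein-coding gene, which need not be the gene it acts on. Of the 6 strongest, 5 held AP1 and the Ppargc1a region held a CRE motif, a related palindrome, 18 bp from the summit. The AP1 motif lay 4 bp from the summit in the Orc5 region, and the Usp31 region held a pair of AP1 motifs, 30 bp before and 17 bp after the summit. The printed window of the Inhba region on the upstream side held ETS 76 bp from the summit, that of the downstream region held RUNX motifs 12 and 61 bp from it, and that of Inhbb held none of these motifs.

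The members were weak regions. The number of fragments over the summit ran from 11 to 77 with a median of 18, against 24 in gained regions called with both sets and 29 in the 5539 distal regions called in all 4 libraries. Their median fold enrichment was 7.42, against 8.18 and 9.46, and their median width 154 bp, against 203.5 and 248 bp. They were not set apart by position: 52.6% lay in introns and 44.4% between genes, against 50.6% and 46.2% of the regions called in all libraries. The median distance to the nearest protein-coding TSS was 33.6 kb in the members and 29.8 kb in the regions called in all libraries. GC content of 500 bp around the middle was 44.8% against 47.4%, and the repeat-masked share 12.6% against 9.6%, both as medians. The same pattern of calls was found in 11.5% of the 9776 autosomal regions within 2 kb of a TSS (1126 regions, interval 10.9 to 12.2), below the interval of the distal share.

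**Figure D1:**
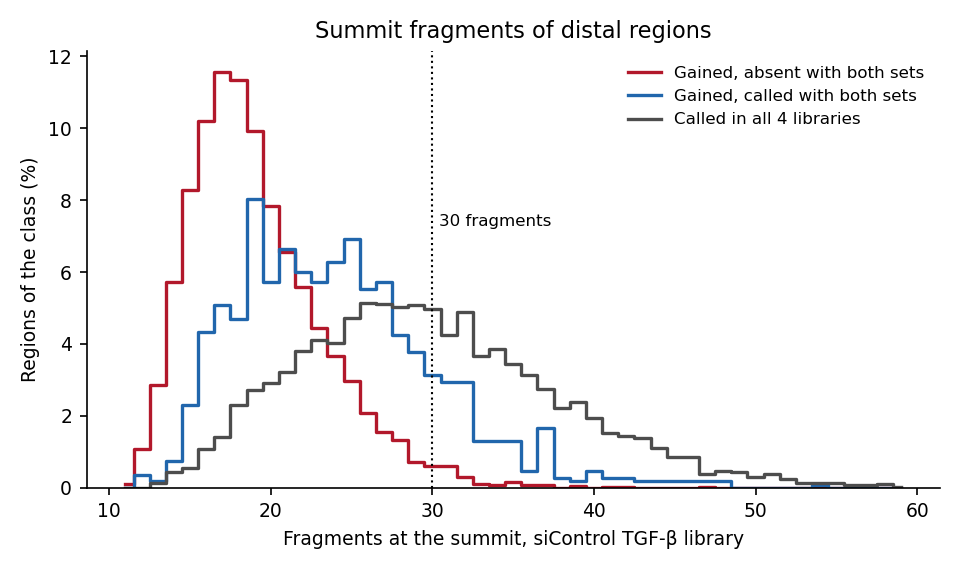
Share of the regions of each class (y axis, percent) by the number of fragments at the summit in the siControl TGF-β library (x axis, regions of 60 or more fragments not drawn). Members, the red line, peaked at lower values than gained regions called with both sets and regions called in all 4 libraries, with medians of 18, 24 and 29 fragments, and the dotted line marks the limit of 30 fragments.

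How far the absence of a call reaches was computed from the deposited lists. Estimated depths were 15.3 M reads for the untreated cells, 16.3 M for the TGF-β control, 17.3 M for set 1 and 20.7 M for set 2, and the lists held 22247, 28754, 22516 and 14925 regions. The list with set 2 was thus the shortest, from the deepest library, and its length bears on every count here. At the local background of the members scaled to each library, a summit needed a median of 11 fragments to be called in the untreated cells, 12 for set 1 and 13 for set 2. The fragments of a member were scaled by the background floor, the lowest local background of a list. They came to a median of 1.43 times the limit in the untreated cells, 1.56 times for set 1 and 1.69 times for set 2. In 1722 members (37.9%) they came to over 1.5 times the limit in all 3 lists. Counting error is wide at such numbers, since 18 fragments have an exact Poisson 95% interval of 10.7 to 28.4. The lower end of such an interval, scaled in the same way, reached the limit of all 3 lists in 1033 members (22.7%). Only the background floor, which depends on depth and on fragment length, entered this scaling. Yet the median of called autosomal regions was 22 summit fragments with set 2, the deepest library, and 23 in the TGF-β control. Members were also chosen by these same calls. The ratios therefore describe the lists, and a missing call sets no lower bound on a difference.

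At the edges of the rule, the member nearest to a TSS lay 2002 bp from it and the farthest region with the same calls inside the limit lay 1999 bp from one. The smallest gap to a region of another list was 8 bp, and the smallest overlap that kept a region out was 1 bp. Of the distal regions left out, 29 shared fewer than 50 bp with any region of another list. The nearest region of another list lay a median of 14.38 kb away, within 1 kb for 8.80% of the members and over 100 kb away for 11.7%.

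Members with at least 30 summit fragments numbered 100, which was 2.64% of the 3787 distal regions of that strength and 2.20% of all members. There were 28 with exactly 30 fragments, and 33 members just outside with 29. They stood on a higher local background, with a median of 3.56 fragments against 1.53 in all members, and the part of this background in the pattern was not tested. Another list had a region within 1 kb in 30 of the 100, against 8.80% of all members, and 17 had none within 10 kb. Their scaled fragments were over 1.5 times the limit of all 3 lists in 82, and the lower Poisson end reached those limits in 86. By position, 59 lay in introns and 35 between genes, and they were nearest to 95 different genes.

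The 2 regions with the most fragments, 77 and 66, lay in introns of Sfi1, which encodes a centrin-binding protein of the centrosome. Their fold enrichment was only 2.81 and 3.38, because the local background there was 26.7 and 18.8 fragments. The next 2, with 47 and 42 fragments, lay 75.5 and 76.2 kb from Ifne, an interferon gene of epithelia, again on a high background of 11.3 and 10.0 fragments. Only these 4 of the 100 had a background over 10 fragments. Regions at Nfib, a transcription factor gene of the nuclear factor I family, followed with 41 and 37 fragments, 140 and 341 kb from its TSS. Uaca and Ttc39b each had a region of 39 fragments. A region in an intron of Lama5, which encodes a laminin chain of the basement membrane, had 37 fragments and a fold enrichment of 6.24. The others among the 15 with the most fragments lay nearest to Rsbn1, Slc10a2, Fancc, Lpin2, Susd1 and Orc5, with 35 to 37 fragments.

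By fold enrichment the strong members had another order. The highest, already named among those with the most fragments, lay 46.8 kb upstream of Orc5, which encodes a subunit of the origin recognition complex, in an intron of 6030443J06Rik, with 35 fragments and a fold enrichment of 14.9. The 35 fragments have a Poisson 95% interval of 24.4 to 48.7, whereas 11 fragments at this background would have been called in the untreated library and 12 with either siRNA set. Its fragments, scaled as above, were 2.88, 3.12 and 3.48 times these limits in the untreated, set 1 and set 2 libraries. These were the largest such ratios among all members, and the lower Poisson end was 2.00, 2.17 and 2.42 times the limits. As the largest of many, these ratios set no lower bound on a difference either. The region 25.7 kb upstream of Foxo1, a forkhead factor gene restrained by AKT, held 30 fragments with a fold enrichment of 12.6. The Usp31 region, in an intron of this deubiquitinase gene, held 30 fragments and the region near Myc, in an intron of Pvt1, 31 fragments. The fold enrichment was 11.9 and 11.3 in these, and 11.1 in the region 157 kb upstream of Ppargc1a, the gene of a coactivator of mitochondrial biogenesis. In all, 15 of the 100 strong members and 188 of all members reached a fold enrichment of 10. Some strong members lay near another list's region and some far from any. The Ggta1 region was 0.282 kb from one with set 1 and 0.31 kb from one with set 2. For the Rnf150 region, with 31 fragments, the nearest was 121 kb away. Regions of 30 or more fragments were also found near Epcam (22.4 kb, 35 fragments), an epithelial adhesion gene, and near Itgb4 (31 fragments), a hemidesmosome integrin. Another lay near Sox4 (32 fragments), a factor induced in EMT. The nearest region of another list was 3.35 kb from the Epcam region and 13.6 kb from the Sox4 region. Beside the Itgb4 region, the untreated, set 1 and set 2 lists had regions 0.577, 0.581 and 0.598 kb away.

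AP1 was the most common of the enhancer motifs searched. In 500 bp around the middle, 2136 of the 4545 members held it, which was 47.0% (45.5 to 48.4), against 8.77% of windows of equal length 5 kb to either side. The share was 53.5% (51.7 to 55.4) in gained regions called with one set, 56.0% (53.0 to 58.9) in those called with both sets, and 59.2% (57.9 to 60.5) in regions called in all 4 libraries. The interval of the members lay below each of these and above that of the 4815 remaining distal regions, which were called without TGF-β and absent with one or both sets, at 43.7% (42.3 to 45.1). These classes differ in strength, and when each was weighted to the fragment counts of the members, AP1 was in 48.0% of the regions called in all libraries but in 52.9% of gained regions called with both sets and 52.6% of those called with one, and in 39.8% of the remaining distal regions (weighted shares are given without intervals). AP1 in the members was centred on the summit: 35.6% had it within 50 bp of the summit, whereas 2.44% had it at 500 to 600 bp to one side. The corresponding shares within 50 bp were 40.8% in gained regions called with both sets and 43.3% in regions called in all libraries.

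**Figure D2:**
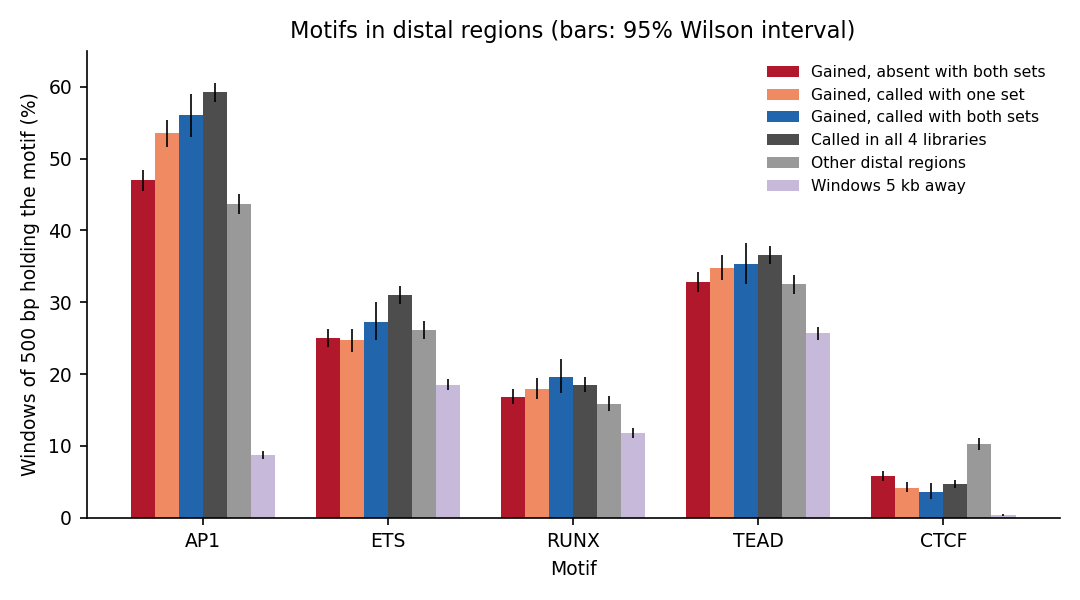
Share of 500 bp windows (y axis, percent) that held each of 5 motifs (x axis) in the members, 4 other classes of distal regions and windows 5 kb from the members, with 95% Wilson intervals as bars. AP1 was in 47.0% of the members, 59.2% of regions called in all 4 libraries and 8.77% of the windows 5 kb away, whereas the ETS shares lay closer together.

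AP1 varied little with strength in the members. The share was 49.5% at 14 fragments or fewer, 46.2% at 15 to 19, 47.5% at 20 to 24, 47.6% at 25 to 29 and 46.0% at 30 or more, with overlapping intervals throughout. In regions called in all 4 libraries it was 40.6% at 14 or fewer and 64.1% (62.3 to 65.9) at 30 or more. The 100 strong members, with 36.6 to 55.7, lay below the latter interval. So did the gained regions called with both sets, at 54.2% (47.1 to 61.1), and the remaining distal regions, at 56.1% (52.2 to 59.9), of the same strength. Gained regions called with one set had 58.0% (51.1 to 64.6) at this strength, which overlapped it. In gained regions called with both sets the intervals of the steps of strength also overlapped, with 52.1% at 15 to 19 fragments and 59.5% at 25 to 29.

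**Figure D3:**
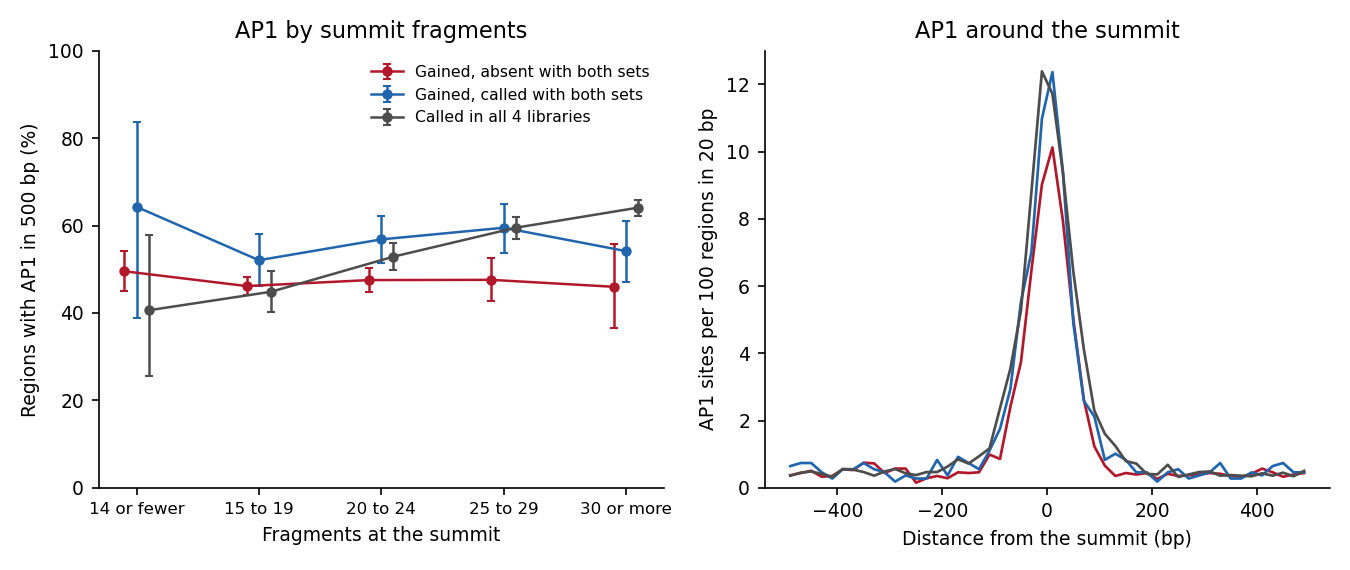
Left, share of regions with AP1 in 500 bp (y axis, percent, with 95% Wilson intervals) by summit fragments (x axis). Right, AP1 sites per 100 regions in steps of 20 bp (y axis) by distance from the summit (x axis, bp); colours as on the left. The members stayed near 47.0% at every strength while regions called in all 4 libraries reached 64.1%, and in all 3 classes AP1 was concentrated within 100 bp or so of the summit.

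The ETS motif, bound by the family of the siRNA targets Etv4 and Etv5, was in 25.1% of the members (23.8 to 26.3), against 18.5% of the windows 5 kb away. The share was 24.7% in gained regions called with one set, 27.3% (24.7 to 30.0) in those called with both, and 31% (29.8 to 32.2) in regions called in all libraries. Weighted to the fragment counts of the members these were 25.5%, 27.7% and 29.9%, and the share in the members did not exceed that in gained regions called with both sets. It was less centred than AP1, with 8.40% of the members holding it within 50 bp of the summit and 4.42% at 500 to 600 bp. AP1 and ETS were both present in 11.1% of the members, against a product of the separate shares of 11.8%. AP1 without ETS was in 35.9%, ETS without AP1 in 13.9% and neither in 39.1%. Among the 100 strong members 20 held ETS (20.0%, 13.3 to 28.9).

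RUNX was in 16.9% of the members and TEAD in 32.8%, against 11.8% and 25.7% of the windows 5 kb away. Gained regions called with one set and with both had 18% and 19.6% for RUNX and 34.8% and 35.3% for TEAD. The motif of CTCF, an insulator protein, was in 5.83% of the members (5.19 to 6.55) and 0.352% of the windows 5 kb away. It was in 4.66% (4.13 to 5.24) of the regions called in all libraries, 3.60% of gained regions called with both sets and 10.2% of the remaining distal regions. Weighted to the fragment counts of the members these were 10.9%, 4.36% and 12.4%, so that the order of the members and the regions called in all libraries turned with the weighting. The palindromic SMAD motif (GTCTAGAC) was in 29 members (0.638%, 0.445 to 0.915), against 0.418% of the windows. The E-box bound by the EMT repressors of the ZEB and SNAI families (CAGGTG) was in 27.6% of the members (26.3 to 28.9), slightly under the 29.8% of the windows. None of AP1, ETS, RUNX and TEAD was found in 20.7% of the members. A motif match is a match of letters and does not show that a factor was bound.

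The members were spread over 3289 genes, taking the nearest protein-coding TSS, which was 15.8% of the 20780 autosomal protein-coding genes. Of these, 856 had at least 2 members, 270 at least 3 and 32 at least 5. Inhba and Lrrc4c had the most, with 8 each. Inhba encodes the βA subunit of activin and inhibin, ligands of the TGF-β family, and Lrrc4c a synaptic adhesion protein. Cdh6, a cadherin gene, Lpp, the gene of a focal adhesion protein, and Nrp1, a receptor of semaphorins and VEGF, had 7 each. Asap1, Bmpr1b, Inhbb and Sox4 had 6 each. Between 29.4% and 100% of the distal regions of these 32 genes were members, the ends of the range being Efna5, with 5 of 17, and Irf8, with 5 of 5. Genes with wide intergenic flanks collect more regions, and the 7 regions of Cdh6 lay between 70.0 and 1455 kb from its TSS. None of these 7 held AP1 or ETS, whereas 6 of the 8 regions of Lrrc4c held AP1.

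Genes of TGF-β signalling had 45 members among 156 distal regions, or 28.8% (22.3 to 36.4), against 24.3% of all distal regions, which lies within the interval. The ligand genes carried 16 of them: 8 near Inhba, 6 near Inhbb, which encodes the activin βB subunit, and 2 near Bmp2. Among receptors, Bmpr1b, a type I receptor of BMPs, had 6 of its 8 distal regions in this class, Tgfbr2, the type II receptor of TGF-β, had 3 of 11, and Tgfbr3, Acvr1, Bmpr1a and Bmpr2 had 1 each. Smad7, the inhibitory Smad induced by TGF-β, had 5 of 16, and Smad3 and Smad5 had 1 each. The corepressor gene Tgif1 had 2 members of 31 and 27 fragments, Id3 and the activin antagonist Fst had 2 each, and Ski, Skor1 and Smurf1 had 1. Tgfb2 and Tgfb3 had 7 and 5 distal regions and no member, and the 7 distal regions of Pmepa1, a feedback inhibitor, held none either.

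The 8 members near Inhba lay 148 to 833 kb from its TSS. The 3 upstream held 21, 16 and 16 fragments, in introns of the noncoding gene B230303A05Rik. The 5 downstream held 22, 17, 24, 21 and 14 fragments, all between genes. The upstream region of 21 fragments had the highest fold enrichment, 9.44, and a summit of 11 fragments there would have been called in the untreated library and of 12 with either siRNA set. Those of 16 fragments were nearer to the limits, which were 13 fragments without TGF-β, and scaled to that library they were 1.11 times the limit. The Poisson interval of 16 fragments, 9.15 to 26.0, includes that limit, so no difference can be read from these missing calls alone. Within 500 kb of the TSS, 8 regions were called in untreated cells, 14 in the TGF-β control, 9 for set 1 and 7 for set 2. The whole lists held 22247, 28754, 22516 and 14925 regions in the same order, and the part of list length in the counts at Inhba was not tested. A region 270 kb upstream was called in every library, holding 32 fragments in untreated cells, 31 in the TGF-β control, 27 for set 1 and 24 for set 2.

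**Figure D4:**
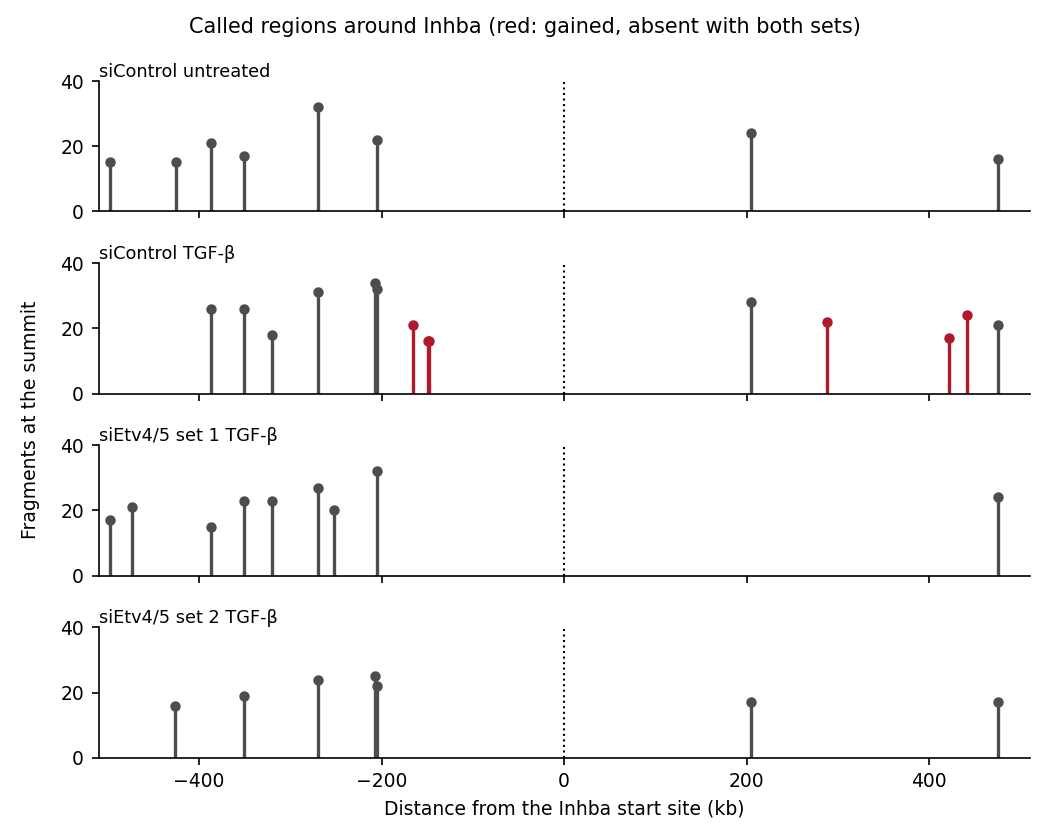
Fragments at the summit (y axis) of every region called within 500 kb of the Inhba start site (x axis, kb, minus meaning upstream) in the 4 libraries, 1 panel each. The 6 members in this window, in red, held 16 to 24 fragments and had no counterpart in the other panels, while the region 270 kb upstream stood in all 4 with 24 to 32 fragments.

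The 6 members of Inhbb lay 12.5 to 153 kb from its TSS with 14 to 24 fragments, and the highest, with a fold enrichment of 9.24, was 36.2 kb upstream and had 22. The member at 17.7 kb had a region of set 1 only 0.169 kb from its edge. The 6 of Bmpr1b held 13 to 26 fragments, and its highest, with a fold enrichment of 11.1 and 25 fragments, lay in an untranslated region of Unc5c, 100 kb from the Bmpr1b TSS. That region held both CTCF and TEAD and no AP1. The nearest region of set 1 was 7.57 kb away and the nearest of the untreated library 286 kb. The 5 members of Smad7 held 12 to 23 fragments, and none held AP1 or ETS.

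Genes of the mesenchymal programme had members among 14.7% to 25% of their distal regions, list by list, and the interval of each list included the 24.3% of all distal regions. Collagen genes had 13 of 52 distal regions in the class (25%), and the highest were in an intron of Col6a3, with 24 fragments and a fold enrichment of 10.5, and 27.7 kb upstream of Col5a1, with 23 fragments and 10.1. Matrix proteases and their inhibitors had 17 of 69 (24.6%). A member 17.6 kb upstream of Plau, encoding urokinase, had 17 fragments, and one in an intron of Mmp14, a membrane-bound collagenase gene, 3.72 kb from its TSS, had 25. Mmp13, named here after its values were seen because the study followed it, had 1 member, 8.97 kb from its TSS with 22 fragments and a fold enrichment of 5.32. No difference can be read from the missing calls of this region alone. Actin, stress fibre and focal adhesion genes had 24 of 107 (22.4%), EMT transcription factors 17 of 82 (20.7%), of which Sox4 had 6, Sox9 4 and Zeb2 3, but only 2 of 20 (10.0%) within 50 kb of a TSS, and matrix glycoproteins and crosslinkers 22 of 109 (20.2%), led by a region in Fbln1 with 23 fragments and a fold enrichment of 10.4. Integrins had 8 of 41 (19.5%), with a region in an intron of Itga11 of 23 fragments and a fold enrichment of 10.9, and laminins 5 of 34 (14.7%).

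Lists of epithelial genes had members among 6.25% to 25.5% of their distal regions. The interval of each of these lists included the 24.3% of all distal regions. Epithelial identity factors had 14 of 55 (25.5%), of which 5 were near Klf4, 3 near Cebpb and 2 near Grhl2, and cadherins, catenins and desmosomal genes 7 of 35 (20.0%), among them 3 near Cdh11 and 2 near Cdh2, both mesenchymal cadherins. Tight junction genes had 4 of 34 (11.8%) and keratins 1 of 16 (6.25%), a region near Krt8. Genes of Wnt and Notch signalling had 21 of 87 (24.1%), 5 of them near the Notch ligand gene Jag1.

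The lists of factors that bind the AP1, ETS, RUNX and TEAD motifs lay below the overall rate with intervals that included it: RUNX and TEAD-YAP factors 14 of 76 (18.4%), ETS factors 9 of 50 (18%) and AP-1 subunits 7 of 41 (17.1%). Etv4 itself had 1 member among 5 distal regions, 45 kb from its TSS with 16 fragments, and Etv5 had 0 of 2. In 2 lists the interval lay below 24.3%: Ras-ERK feedback and ErbB ligand genes with 19 of 133 (14.3%, 9.34 to 21.2) and cytokines and chemokines with 9 of 76 (11.8%, 6.36 to 21). Of the distal regions of these 2 lists, 41 (30.8%) and 29 (38.2%) were gained with TGF-β, against 8379 of all 18733 distal regions. The part of this in the low shares was not tested. Myc, with 36 distal regions, had 3 members and Dusp4, a phosphatase gene of the ERK pathway, 4 of 12. No adjustment was made for the 18 lists, and regions near 1 gene are not independent of each other.

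**Figure D5:**
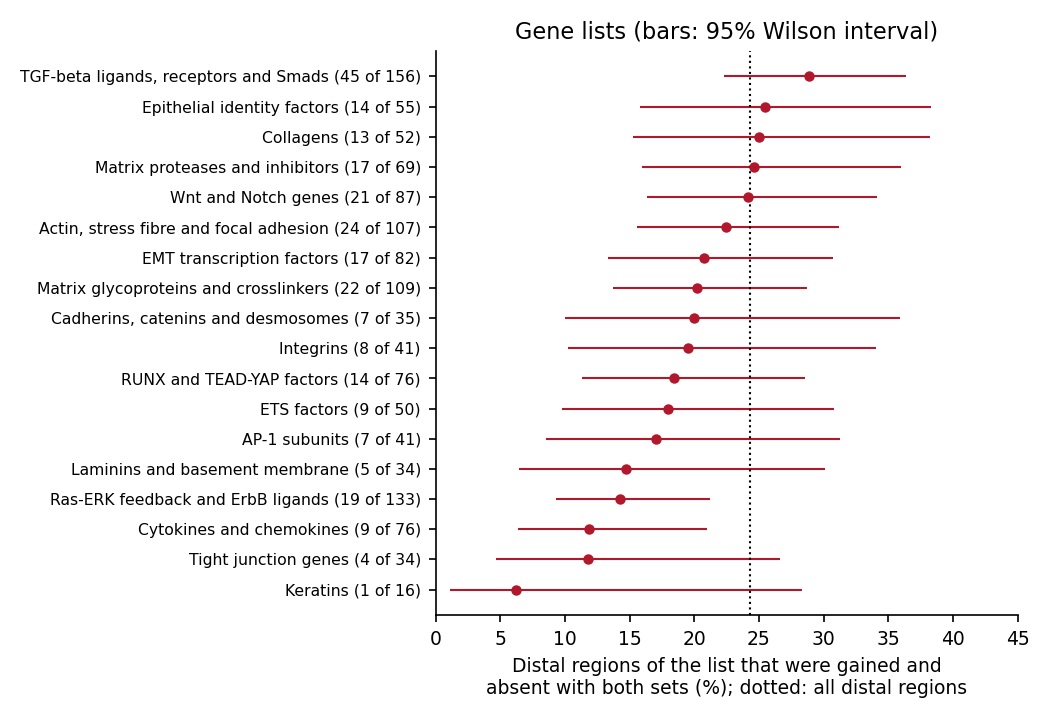
Share of the distal regions nearest to the genes of each of 18 lists that were members (x axis, percent, with 95% Wilson intervals and counts beside the names on the y axis). The dotted line marks the 24.3% of all distal regions, and the intervals of the Ras-ERK list (14.3%) and of the cytokine list (11.8%) lay below it.

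The members had fewer close neighbours than the other classes, with any other distal region of the same library within 50 kb of 70.7% of them, against 75.1% to 82.4% in those classes. Another member lay within 50 kb of 32.1% of the members, and within 50 kb of 34.6% of gained regions called with both sets and 37.1% of regions called in all libraries. The share was 33.7% for gained regions called with one set and 31.4% for the remaining distal regions. The nearest distal region of the same library was a member for 26.3% of the members, 24.4% of gained regions called with both sets, 22.6% of regions called in all libraries and 23.9% of all distal regions. Of the 100 strong members, 97 had a distal region and 52 another member within 50 kb, and the nearest distal region was a member for 17. Chained at gaps of up to 50 kb, 3085 members stood alone (67.9%), and 130 stretches of 3 or more held 420 members (9.24%), with no stretch above 5. By chromosome the share of distal regions that were members ran from 18.8% on chromosome 19 (135 of 718) to 28.9% on chromosome 14 (138 of 478).

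The stretches with the most members, chosen by their number of members, are given as a description. In 48.1 kb of introns of Filip1l and of Cmss1, which overlaps it, 5 of the 6 distal regions of siControl with TGF-β were members, with 18 to 35 fragments, and each of the other lists had 1 region there. A stretch of 53.6 kb at Camk2g and Plau held 5 members of 12 to 28 fragments, where the untreated library had 1 region, set 1 had 2 and set 2 had 1. The other stretches of 5 lay near Tmprss2 and Ripk4, in 86.7 kb, and near Gfra1 and Ccdc172, in 100 kb, with 8 distal regions in each. In 24.6 kb of an intron of Lpp, 4 members of 19 to 26 fragments were the only regions of any of the 4 lists. The same was found in 27.8 kb of introns of Arhgap35 with 4 members of 16 to 23 fragments. Of the 4 Lpp regions 2 held AP1 and 0 held ETS, and of the 4 Arhgap35 regions 2 held AP1 and 2 held ETS.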

How the data were processed

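FAIRE-seq was performed in EpRas cells in 4 groups, taken from the labels, with 1 list of regions for each. The study describes biological replicates that may have been combined, so no test was run and no spread between replicates could be given. Per the labels and the study's methods, the authors sequenced on an Ion Proton, mapped trimmed reads to mm10 with bowtie2 and called regions with MACS2 (2.1.0 in the submitters' processing notes) at a q-value limit of 0.0001. The deposited lists give the authors' fold enrichment, a ratio of summit signal to local background, with −log10 values of p and q as deposited, and a score, which the authors' caller takes from the −log10 q-value and which was not used.

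Summit fragments and local background were solved from the deposited fold enrichment (fragments plus 1 over background plus 1) and the Poisson −log10 p-value. Fragments came out whole, within 0.05 of the deposited −log10 p-value, in 100% of regions. Depth was estimated from the background floor, the shortest region and an effective genome of 1.87 Gb. TSSs came from the GENCODE vM21 basic annotation of GRCm38, the build of the lists, and sequence from the RefSeq copy of GRCm38. Overlap meant 1 bp or more, and bedtools 2.31.1 gave the same 4545 regions. The limit in each other list was the fewest fragments whose −log10 p-value, at the scaled background, reached the lowest one listed there on autosomes. Motifs were searched as letters on both strands. ETS and TEAD cannot share the same GGAA core as spelled. CTCF was searched by its core consensus. The recovery and overlap steps were tested on simulated data. Python 3.11.15, pandas 2.3.3, scipy 1.17.1 and pysam 0.24.0 were used.

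The members and the gene lists were chosen with earlier results of these data known. Named regions were the 15 members with the most fragments, up to 3 members of highest fold enrichment in each gene list, the 5 stretches with most members, and the 9 printed sequences. A region of 1 gene list is not reported here. Genes with most members, the Arhgap35 stretch and other regions among the 100 strong ones were named after their values were seen. Alternatives of overlap, q-value, list length, TSS distance, fragment limit, motif window, gene distance and neighbour distance were tried. Gene lists hold old and new symbols of some genes, and 3 old symbols matched nothing in the annotation.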

Additional observations from a re-analysis of the deposited data

How the results depend on the processing

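Of 57 alternatives, 36 stayed within 1.5 times the reported count or within the interval of the reported share. With the 14925 most significant regions of each list, members numbered 1498, which was 17.5% of the distal regions left. Requiring scaled fragments over 1.5 times all 3 limits left 1722, and the rule without the set 1 list gave 6893, against 4947 without the set 2 list (all 3 chosen after seeing the data). The other alternatives of the rule gave 3902 to 4864. Strong members numbered 493 at 25 fragments, 22 at 35, and 35 where the local background was 3 fragments or fewer, the last chosen after seeing the data. In 200 bp around the summit the shares were 43.5% for AP1, 14% for ETS, 10.2% for RUNX and 19.6% for TEAD, and in the called regions 43.1%, 12.2%, 9.44% and 17.1%, as shorter windows hold fewer matches. The 8-letter ETS motif was in 7.04%. With the 1722 members above the limits, ETS was in 23.5%, RUNX in 15.3% and TEAD in 30.9%, and the cause was not tested. Within 50 kb of a TSS only 2 of 20 regions near EMT transcription factors were members (10.0%), and the other 17 gene lists stayed within their intervals. Another member lay within 20 kb of 16.7% and within 100 kb of 48.9%. No paired analysis was possible because each group had 1 list. Absence of a call says only that a summit was under the limit of that list, and with 1 list per condition a change with TGF-β or siRNA and a difference between libraries cannot be told apart.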

Other observations

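On the X chromosome, which was left out of the members, 57 of 128 distal regions of siControl with TGF-β had the same pattern of calls (44.5%, 36.2 to 53.2), against 24.3% on the autosomes. Distal regions of the X chromosome were weak, with a median of 17 summit fragments against 22 on the autosomes, and the part of this in the share was not tested.

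The bases beside AP1 in the members were also counted. An A before and a T after the motif, on the strand of the match, framed 230 of 2541 AP1 sites in the members (9.05%, 8.00 to 10.2), 8.78% of those in gained regions called with both sets, 8.18% of those in regions called in all libraries and 5.21% (3.91 to 6.93) of those in the windows 5 kb away. The frame was thus as frequent in the members as in the other classes within counting error.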
